A study of Rattus norvegicus with 9 samples.

Results

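The fibroblast growth factor (FGF) genes described here were 10 rows of the expression table, of 32623 genes in all, selected by gene symbol: the receptor genes Fgfr1, Fgfr2, Fgfr3 and Fgfrl1 and the ligand genes Fgf1, Fgf2, Fgf7, Fgf9, Fgf10 and Fgf18. The samples were 9 RNA-seq libraries of wild-type rat primary aortic vascular smooth muscle cells, in 3 groups of 3. The PDGF-BB+PTUPB group received PTUPB, an inhibitor of both cyclooxygenase-2 and soluble epoxide hydrolase, at 0.5 µM for 2 h and then platelet-derived growth factor BB (PDGF-BB) for 24 h. The PDGF-BB group received PDGF-BB for 24 h without the inhibitor, and the Control group received the DMSO vehicle. The sample labels give PDGF-BB at 10 ng/mL and the series design gives 20 ng/mL. All 3 groups shared growth in 20% serum, 12 h without serum, treatment in 2% serum and passages 4 to 8. The labels do not say whether replicates came from separate animals or cultures, so the p-values here reflect how far these libraries scattered, and that scatter may be technical.

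FGFs are secreted proteins that bind receptor tyrosine kinases together with heparan sulphate, a sulphated sugar chain on cell surface and matrix proteoglycans. Receptor activation passes through the adaptor Frs2 to Ras and the ERK kinases, and ERK activity induces its own inhibitors, the Sprouty proteins and the phosphatase Dusp6. In vascular smooth muscle, Fgf2 acting through Fgfr1 is known as a mitogen, while Fgf7 and Fgf10 are products of mesenchymal cells that act mainly on the epithelial splice form of Fgfr2.

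Counts summed to between 12729187 and 16911050 per library. A gene is called expressed here where 3 or more of the 9 libraries reached an FPKM (fragments per kilobase of exon, scaled to library size) of 1. Of the 10 smooth muscle markers 8 were expressed, and their summed level ran from 2210 to 2469 FPKM with PDGF-BB+PTUPB, from 2172 to 2535 FPKM with PDGF-BB and from 1744 to 2374 FPKM in Control. That sum was carried by Tagln and Acta2, and its members differed in direction: Tagln and Cnn1 averaged 1658 and 85.6 FPKM with PDGF-BB, against 1299 and 65.2 FPKM in Control, while Acta2, Mylk and Myh11 averaged 479, 15.5 and 3.05 FPKM with PDGF-BB, against 659, 29.4 and 5.99 FPKM in Control. Myocd and Des, which also mark smooth muscle, peaked at 1.00 and 0.18 FPKM over the 9 libraries. Of the 8 adventitial fibroblast markers 6 were expressed, with summed levels of 527 to 656 FPKM with PDGF-BB+PTUPB, 299 to 360 FPKM with PDGF-BB and 657 to 753 FPKM in Control, with Pdgfra (122 to 289 FPKM), Scara5 (123 to 344 FPKM) and Dpep1 (43.4 to 107 FPKM) the most abundant. Clec3b, Col14a1 and Pi16 peaked at 7.76, 4.90 and 3.88 FPKM, and Dpt and Cd34 stayed at or below 0.22 and 0.08 FPKM. The part of this shift in the FGF results was not tested, and in bulk libraries fewer cells of a type and less RNA per cell cannot be told apart. The endothelial markers Cdh5, Kdr, Tie1 and Emcn, the macrophage markers Ptprc, C1qa and C1qb, the Schwann marker Sox10 and the pericyte marker Rgs5 had no count in any library. On the same lists the endothelial marker Egfl7 reached 11.9 to 17.1 FPKM, the macrophage markers Cd14 and Cd68 reached 12.95 to 19.6 and 2.03 to 4.43 FPKM, and the pericyte markers Cspg4, Kcnj8 and Abcc9 reached 2.04 to 6.59, 2.32 to 4.07 and 1.80 to 4.28 FPKM. PDGF-BB replicate 3 and Control replicate 2 had the most negative trends with gene length. The Spearman correlation across genes between exonic length and a gene's deviation from the mean of the rest of its group was −0.37 and −0.36 there. It ran from −0.11 to 0.34 in the other libraries, with 0.34 in PDGF-BB replicate 2 and 0.32 in Control replicate 1. Deviations within a group depend on each other, so these values do not show which library is the odd one. Named calls are also given without PDGF-BB replicate 3 and Control replicate 2, called the libraries with a length trend below.

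Promoter sequence is shown for one receptor gene and one ligand gene, Fgfr2 and Fgf10, because both were called lower with PDGF-BB, while with PTUPB before it Fgfr2 alone was again called lower than in Control. The windows are the 250 bases before the annotated gene start in RefSeq (build GRCr8), at chr1:194280915-194281164 on the minus strand for Fgfr2 and chr2:52533689-52533938 on the plus strand for Fgf10, written 5′ to 3′. Capitals mark GGGCGG, the letters of a GC box, and CANNTG, the letters of an E box, on either strand.
Fgfr2: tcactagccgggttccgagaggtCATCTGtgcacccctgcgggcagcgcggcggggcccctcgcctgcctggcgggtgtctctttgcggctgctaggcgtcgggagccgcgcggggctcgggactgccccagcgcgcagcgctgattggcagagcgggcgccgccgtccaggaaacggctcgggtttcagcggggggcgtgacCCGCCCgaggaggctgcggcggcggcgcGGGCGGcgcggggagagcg
Fgf10: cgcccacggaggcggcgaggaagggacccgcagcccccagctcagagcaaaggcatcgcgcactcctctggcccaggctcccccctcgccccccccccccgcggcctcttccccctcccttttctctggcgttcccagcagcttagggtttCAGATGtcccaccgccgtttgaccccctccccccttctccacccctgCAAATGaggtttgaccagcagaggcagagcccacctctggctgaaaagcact
The Fgfr2 window holds 2 GGGCGG and 1 CANNTG matches, and the Fgf10 window holds 0 GGGCGG and 2 CANNTG matches. The G+C share was 76.8% in the Fgfr2 window and 67.2% in the Fgf10 window, with 37 and 13 CpG dinucleotides, against medians of 51.2% and 5 over 33469 RefSeq windows of this length. RefSeq windows were found for 9 of the 10 genes. In the RefSeq table the start site of a window can lie inside the annotated gene: it was 62393 bases from the gene start for Fgf1, 1806 for Fgf9, 1070 for Fgf7, 1047 for Fgf18 and 6 for Fgfr3, and at the gene start for Fgfr2, Fgfrl1, Fgf2 and Fgf10. GGGCGG was present in 4 of these 9 windows and in 30.5% of all windows, CANNTG in 7 and in 65.5%, TATAAA in 1 and in 12.9%, TGANTCA in 0 and in 6.34%, and a CArG box in 0 and in 1.50%. CANNTG reads the same on both strands, and no match was required to lie apart from another. A match is a run of letters and not evidence of binding.

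Of the 10 FGF genes 7 were expressed: Fgf7, Fgf10, Fgf1 and Fgf2 among the ligands and Fgfr1, Fgfr2 and Fgfrl1 among the receptors. Fgfr3 reached 1 FPKM in 2 libraries, and Fgf9 and Fgf18 in none. At a minimum of 0.5 FPKM 8 genes were expressed and at 2 FPKM 5 were. The highest level per length belonged to Fgf7, which averaged 154 ± 12.4 FPKM with PDGF-BB+PTUPB, 97.9 ± 29.9 FPKM with PDGF-BB and 151 ± 9.78 FPKM in Control (SD, n = 3 each). Fgf10 followed at 61.4 ± 12.0 FPKM with PDGF-BB+PTUPB, 45.8 ± 9.82 FPKM with PDGF-BB and 72.1 ± 6.89 FPKM in Control (SD, n = 3 each). In raw counts the order of these ligands was the other way round, with 33160 counts for Fgf10 and 12154 for Fgf7 over the 9 libraries. The exonic length used for Fgf7 was 693 bases and for Fgf10 4242 bases, so the order per length rests on those lengths.

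Fgf7 and Fgf10 together made up 96.6% to 98.4% of the summed FPKM of the 6 ligand genes in every library. Among Fgfr1, Fgfr2 and Fgfr3, the receptors with a kinase domain, Fgfr1 made up 93.7% to 96.0%. The summed ligand level averaged 219 ± 24.2 FPKM with PDGF-BB+PTUPB, 146 ± 39.8 FPKM with PDGF-BB and 229 ± 14.9 FPKM in Control (SD, n = 3 each). In order of mean FPKM, Fgf7, Fgf10, Fgfr1 and Fgfrl1 were the 4 highest in each group, in that sequence. The libraries of neighbours in that order overlapped for Fgf10 and Fgfr1 with PDGF-BB and for Fgfrl1 and Fgf1 in Control. Among the lower genes, Fgf2 overlapped Fgfr2 in all 3 groups, and it also overlapped Fgfr3 with PDGF-BB and Fgf1 in Control. Fgf9 and Fgf18 overlapped each other in all 3 groups.

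**Figure D1:**
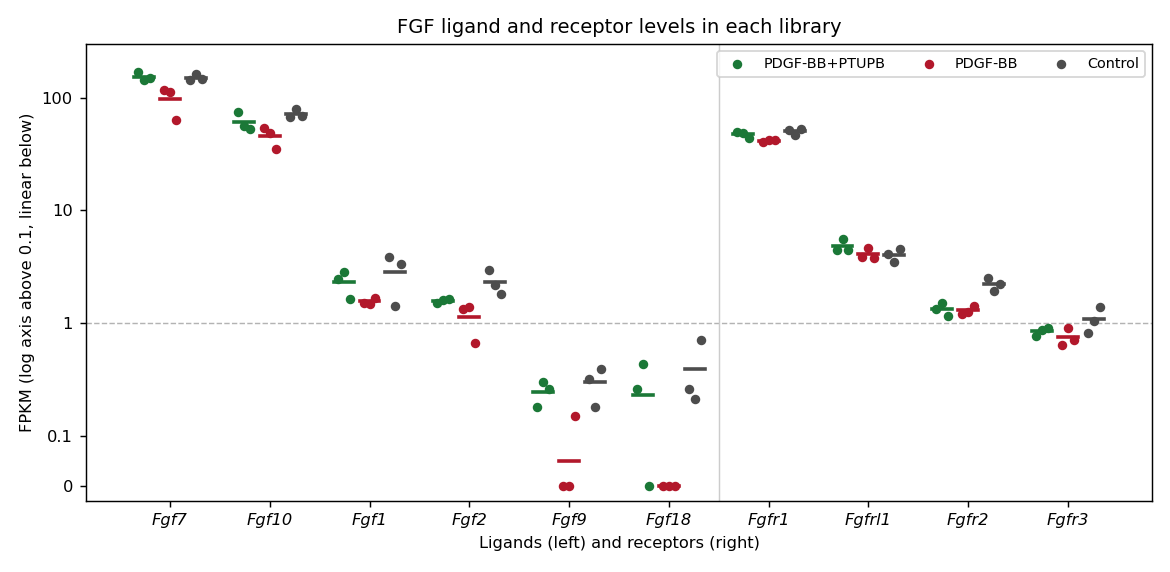
Level of each of the 10 FGF genes per library, in FPKM on an axis that is logarithmic above 0.1 and linear below, for the PDGF-BB+PTUPB, PDGF-BB and Control groups with 3 libraries each; points are libraries, short lines are group means, and the dashed line is 1 FPKM. Fgf7 (63.5 to 168 FPKM) and Fgf10 (35.05 to 80.0 FPKM) lie above the other ligands, and Fgfr1 (40.8 to 53.2 FPKM) above the other receptors.

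Differences between groups were tested with edgeR's quasi-likelihood F test over 12107 genes kept by its count filter, and a gene was called at a Benjamini-Hochberg adjusted p under 0.05, two-sided. This filter kept 8 of the 10 FGF genes and left out Fgf9 and Fgf18. Shares of all genes are given at the adjusted p only. Counts at an unadjusted p under 0.05 have no such share beside them, so whether they exceed that of all genes was not tested. The 3 comparisons share libraries, and changes are log2 fold changes of the first-named group over the second, given with their standard error.

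PDGF-BB was compared with Control first, to ask what changed with the stimulus alone. Of the 8 FGF genes tested, 5 were called lower with PDGF-BB and 0 higher, namely the receptor genes Fgfr1 and Fgfr2 and the ligand genes Fgf2, Fgf7 and Fgf10. At an unadjusted p under 0.05, 7 were lower and 0 higher, with no share of all genes at that threshold to set beside them. At the adjusted p, which is stricter, 14.9% of all genes tested were called lower, 16.9% higher and 31.8% in either direction. The median change of the 8 genes was −0.70, beside −0.01 over all tested genes. The libraries of the PDGF-BB and Control groups did not overlap in CPM, counts scaled to library size, for 5 of the 8 genes, all lower with PDGF-BB, where 43.7% of all genes did not overlap and 21.2% did not overlap and were lower.

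Fgfr1, the receptor gene with the highest level, was at 40.8, 42.2 and 41.8 FPKM in PDGF-BB replicates 1 to 3 and at 51.3, 46.2 and 53.2 FPKM in Control replicates 1 to 3. Every PDGF-BB library lay below every Control library, by a small margin. The change was −0.34 ± 0.08 (edgeR adjusted p = 0.0103), and −0.41 ± 0.07 without the libraries with a length trend (edgeR adjusted p = 0.00134). Fgfr2 was at 1.20, 1.26 and 1.43 FPKM in PDGF-BB and at 2.53, 1.91 and 2.20 FPKM in Control, again with no overlap. Its change was −0.83 ± 0.17 (edgeR adjusted p = 0.00405), and −1.02 ± 0.18 without those libraries (edgeR adjusted p = 0.00199). The files give 1 value per gene, so the splice forms of Fgfr2 that differ in the ligands they bind were not separated.

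Fgfr3, a kinase receptor best known from growth plate cartilage, was at 0.64, 0.91 and 0.71 FPKM in PDGF-BB and at 0.82, 1.04 and 1.39 FPKM in Control. The groups overlapped, and the change of −0.60 ± 0.24 did not pass the test (95% interval −1.14 to −0.05 before adjustment, edgeR adjusted p = 0.0884). Fgfrl1, an FGF-binding receptor without a tyrosine kinase domain, was at 3.85, 4.65 and 3.75 FPKM in PDGF-BB and at 4.12, 3.48 and 4.57 FPKM in Control. The groups lay on top of each other, with a difference of −0.05 ± 0.14 (95% interval −0.37 to 0.26, edgeR adjusted p = 0.796).

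Fgf7, also called keratinocyte growth factor, was at 118, 112 and 63.5 FPKM in PDGF-BB and at 143, 162 and 148 FPKM in Control. All 3 PDGF-BB libraries were below all 3 Control libraries, and PDGF-BB replicate 3 was the lowest. The change was −0.69 ± 0.18 (edgeR adjusted p = 0.0171). It was −0.46 ± 0.08 without PDGF-BB replicate 3 (edgeR adjusted p = 0.00327). The Fgf7 call was lost without Control replicate 2 (−0.62 ± 0.22, edgeR adjusted p = 0.0612), and it stood without both of these libraries (−0.42 ± 0.08, edgeR adjusted p = 0.00338). On the deposited coordinates Fgf7 shares its span with Fam227b on the other strand, which had 175 counts over the 9 libraries against 12154 for Fgf7.

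Fgf10 was at 54.3, 48.2 and 35.05 FPKM in PDGF-BB and at 67.65, 80.0 and 68.6 FPKM in Control. The groups did not overlap, and PDGF-BB replicate 3 was again the lowest. The change was −0.72 ± 0.17 (edgeR adjusted p = 0.00851), and −0.49 ± 0.14 without the libraries with a length trend (edgeR adjusted p = 0.0233).

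Fgf2, basic FGF, was at 1.32, 1.40 and 0.67 FPKM in PDGF-BB and at 2.96, 2.16 and 1.82 FPKM in Control. The groups did not overlap, and the change was −1.10 ± 0.31 (edgeR adjusted p = 0.0213). This call rested on few reads and single libraries: it was lost without PDGF-BB replicate 3 (−0.84 ± 0.29, edgeR adjusted p = 0.0565), without Control replicate 1 (−0.88 ± 0.33, edgeR adjusted p = 0.0792) and on leaving out both libraries with a length trend (−0.90 ± 0.33, edgeR adjusted p = 0.0546). Fgf2 also overlaps Nudt6, an antisense gene, over 375 bases on the deposited coordinates, and it was the only FGF gene whose counts were not whole numbers. Summed with Nudt6, the counts were whole to within 0.001 in all 9 libraries, at 61, 75 and 57 in PDGF-BB+PTUPB, 47, 52 and 29 in PDGF-BB and 83, 93 and 70 in Control. The strand used in counting is not stated, so reads from the stretch that Fgf2 and Nudt6 share cannot be assigned to either gene. The Fgf2 value is therefore uncertain. The sum of both genes was lower with PDGF-BB than in Control by a log2 change of −0.75 ± 0.23 (edgeR adjusted p = 0.0298), a test added after the counts were seen. Nudt6 alone changed by −0.41 ± 0.25 and was not called (edgeR adjusted p = 0.232).

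**Figure D2:**
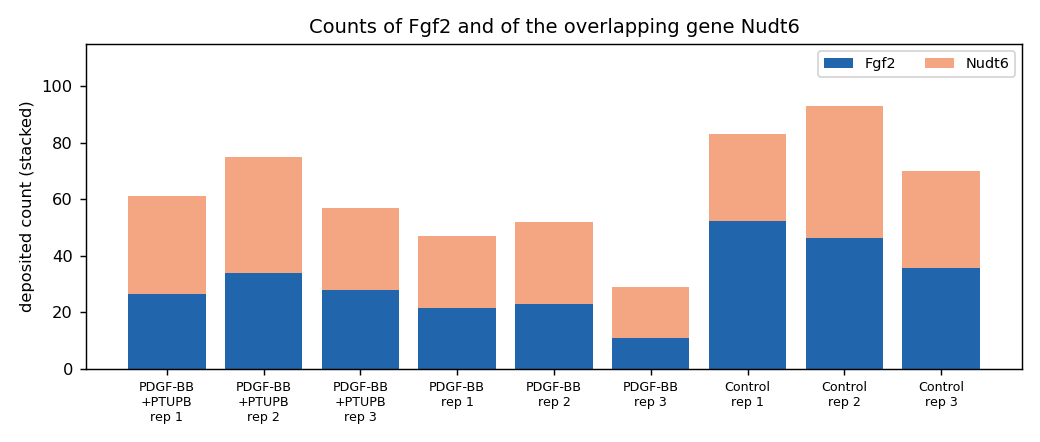
Deposited counts of Fgf2 and of its antisense neighbour Nudt6, stacked per library, for 3 PDGF-BB+PTUPB, 3 PDGF-BB and 3 Control libraries. The stacked heights are whole numbers, from 57 to 75 with PDGF-BB+PTUPB, 29 to 52 with PDGF-BB and 70 to 93 in Control.

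Fgf1, acidic FGF, which binds all FGF receptors, was at 1.52, 1.49 and 1.68 FPKM in PDGF-BB and at 3.86, 1.41 and 3.33 FPKM in Control. Control replicate 2 lay below all 3 PDGF-BB libraries and the other Control libraries above them. The change of −0.93 ± 0.34 did not pass the test (edgeR adjusted p = 0.0568), and it passed without Control replicate 2 (−1.25 ± 0.21, edgeR adjusted p = 0.00230).

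Fgf9 and Fgf18, which are both ligands of Fgfr3, were near the floor of detection. Fgf9 had 5, 10 and 7 counts in PDGF-BB+PTUPB, 0, 0 and 4 counts in PDGF-BB and 9, 6 and 12 counts in Control. Pooled over the group, its CPM with PDGF-BB was 0.177 times that in Control, and with PDGF-BB+PTUPB it was 4.83 times that with PDGF-BB. Fgf18 had 2, 4 and 0 counts in PDGF-BB+PTUPB, 0 in each PDGF-BB library and 2, 2 and 6 counts in Control. With the PDGF-BB count of 0 set to a floor of 3 counts over the group, Fgf18 with PDGF-BB was 2.79-fold lower than in Control. With PDGF-BB+PTUPB it was then 1.75-fold higher than with PDGF-BB. These folds take the pooled counts of 10 in Control and 6 in PDGF-BB+PTUPB as exact, so they are not lower bounds. Fitted without the count filter, the PDGF-BB change from Control gave edgeR adjusted p = 0.0604 for Fgf9 and edgeR adjusted p = 0.0678 for Fgf18, so no call was made at this depth. With PDGF-BB+PTUPB against PDGF-BB the same fit gave edgeR adjusted p = 0.147 for Fgf9 and edgeR adjusted p = 0.193 for Fgf18.

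The second comparison, PDGF-BB+PTUPB against PDGF-BB, gives the difference PTUPB made under PDGF-BB. Of the 8 FGF genes, Fgf7 was called higher with PDGF-BB+PTUPB and 0 were called lower. At an unadjusted p under 0.05 3 were higher and 0 lower, again with no share of all genes at that threshold. Over all tested genes 7.50% were called higher, 9.50% lower and 17.0% in either direction, all at the adjusted p, so a count of 1 in 8 called is near the background. The median change of the 8 genes was 0.37, beside 0.00 over all genes. The groups did not overlap in CPM for Fgf7, Fgfr1 and Fgf2, 3 of the 8 genes, all higher with PDGF-BB+PTUPB, where 39.7% of all genes did not overlap and 18.9% did not overlap and were higher.

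Fgf7 was at 168, 144 and 149 FPKM with PDGF-BB+PTUPB, against 118, 112 and 63.5 FPKM with PDGF-BB. Every PDGF-BB+PTUPB library exceeded every PDGF-BB library. The difference was 0.69 ± 0.19 (edgeR adjusted p = 0.0298). It was 0.46 ± 0.08 without PDGF-BB replicate 3 (edgeR adjusted p = 0.00788) and 0.46 ± 0.08 without both libraries with a length trend (edgeR adjusted p = 0.00244). Leaving out PDGF-BB+PTUPB replicate 1, 2 or 3 ended the call, with edgeR adjusted p = 0.108, 0.0647 and 0.0680, at differences of 0.62, 0.73 and 0.71.

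Fgf10 was at 75.2, 55.6 and 53.3 FPKM with PDGF-BB+PTUPB, against 54.3, 48.2 and 35.05 FPKM with PDGF-BB. The groups overlapped slightly, and the difference of 0.46 ± 0.17 did not pass the test (95% interval 0.09 to 0.83 before adjustment, edgeR adjusted p = 0.0872). In 1 of the 20 alternative settings the Fgf10 difference was called, with adjusted p from 0.0440 to 0.309 over all 20. Fgfr1 was at 49.6, 48.5 and 44.15 FPKM with PDGF-BB+PTUPB, against 40.8, 42.2 and 41.8 FPKM with PDGF-BB. The groups did not overlap, and the difference of 0.23 ± 0.08 missed the threshold (edgeR adjusted p = 0.0858). It passed when Control replicate 2 was left out (edgeR adjusted p = 0.0481) and when both libraries with a length trend were (edgeR adjusted p = 0.0252).

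Fgfr2 was at 1.32, 1.50 and 1.16 FPKM with PDGF-BB+PTUPB, against 1.20, 1.26 and 1.43 FPKM with PDGF-BB. The groups overlapped, with a difference of 0.07 ± 0.17 and a 95% interval of −0.31 to 0.45 (edgeR adjusted p = 0.818). Fgf2 was at 1.50, 1.59 and 1.62 FPKM with PDGF-BB+PTUPB, against 1.32, 1.40 and 0.67 FPKM with PDGF-BB, and its difference of 0.52 ± 0.32 was not called (edgeR adjusted p = 0.297). Fgf1 was at 2.48, 2.81 and 1.65 FPKM with PDGF-BB+PTUPB, against 1.52, 1.49 and 1.68 FPKM with PDGF-BB. The 0.60 ± 0.34 difference of Fgf1 was not called either (edgeR adjusted p = 0.257).

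Among the remaining receptors, Fgfrl1 was at 4.47, 5.53 and 4.47 FPKM with PDGF-BB+PTUPB, against 3.85, 4.65 and 3.75 FPKM with PDGF-BB. Its difference was 0.28 ± 0.14 with a 95% interval of −0.03 to 0.59 (edgeR adjusted p = 0.207). Fgfr3 was at 0.77, 0.87 and 0.91 FPKM with PDGF-BB+PTUPB, against 0.64, 0.91 and 0.71 FPKM with PDGF-BB. The difference was 0.21 ± 0.25 and was not called (edgeR adjusted p = 0.605).

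**Figure D3:**
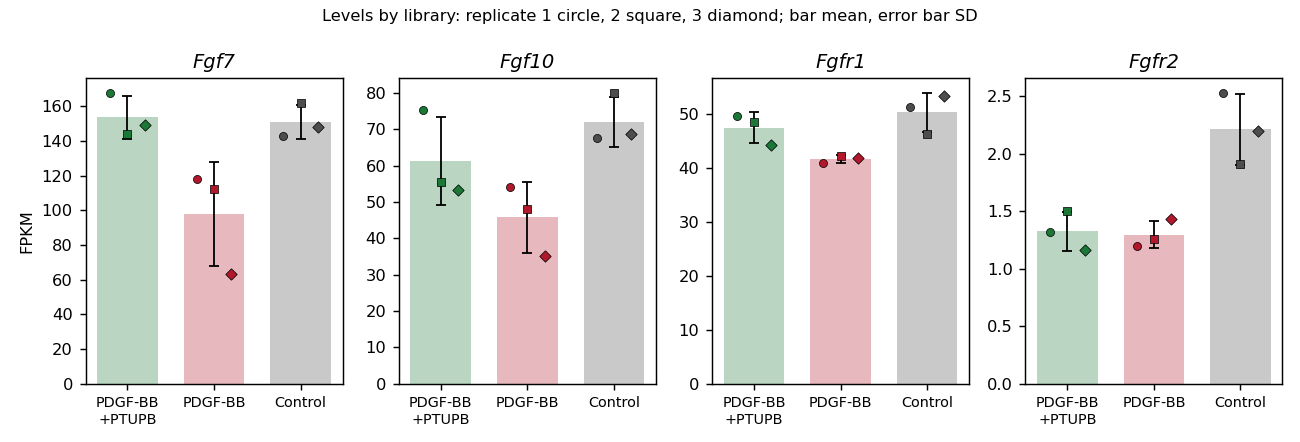
FPKM per library of Fgf7, Fgf10, Fgfr1 and Fgfr2 in the PDGF-BB+PTUPB, PDGF-BB and Control groups, with 1 symbol per library, bars for means and error bars for the SD (n = 3 each). The 3 PDGF-BB libraries lie below the 3 Control libraries for each gene, and Fgfr2 is also below Control with PDGF-BB+PTUPB (1.16 to 1.50 FPKM against 1.91 to 2.53 FPKM).

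The third comparison set PDGF-BB+PTUPB against Control, the difference that remained between them. Of the 8 FGF genes, Fgfr2 was called lower and 0 higher, where 0.306% of all genes were called lower, 1.70% higher and 2.01% in either direction. At an unadjusted p under 0.05 Fgfr2 was likewise the only 1 of the 8. Fgfr2 was at 1.32, 1.50 and 1.16 FPKM with PDGF-BB+PTUPB and at 2.53, 1.91 and 2.20 FPKM in Control, with no overlap. The change was −0.76 ± 0.17 (edgeR adjusted p = 0.0474), just inside the threshold, and −0.87 ± 0.16 without the libraries with a length trend (edgeR adjusted p = 0.0103). The call was lost in 11 of the 20 alternative settings, with adjusted p from 0.00963 to 0.227 over all 20. Those settings include leaving out any PDGF-BB+PTUPB library, PDGF-BB replicate 1 or 2, or Control replicate 1 or 3.

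Fgf7 differed between PDGF-BB+PTUPB and Control by −0.00061 ± 0.18, with a 95% interval of −0.41 to 0.40 (edgeR adjusted p = 0.999). Fgf10 differed by −0.26 ± 0.17 with an interval of −0.63 to 0.11 (edgeR adjusted p = 0.563), and Fgfr1 by −0.11 ± 0.08 with an interval of −0.29 to 0.07 (edgeR adjusted p = 0.619). These intervals are before adjustment and do not show that the levels were equal. Fgf2 differed by −0.58 ± 0.30 with groups that did not overlap, and was not called (edgeR adjusted p = 0.442). Over the 8 genes the changes ran from −0.76 for Fgfr2 to 0.22 for Fgfrl1, with a median of −0.30 beside −0.01 over all genes, and Fgfr2 and Fgf2, 2 of the 8 genes, did not overlap in CPM and were lower. Of all genes 21.2% did not overlap and 9.52% did not overlap and were lower.

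**Figure D4:**
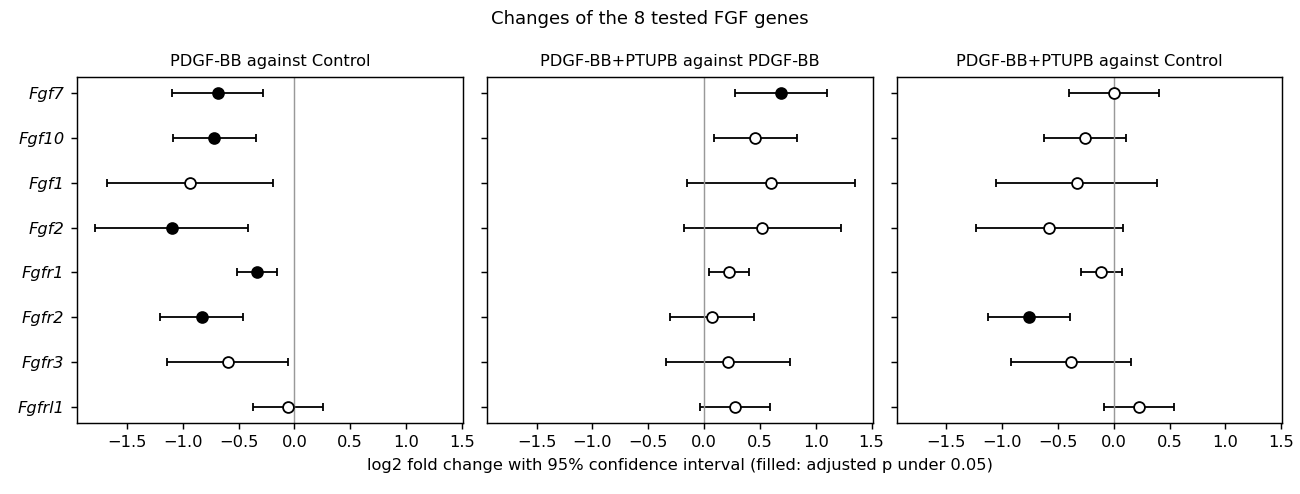
Log2 fold change with its 95% confidence interval for the 8 tested FGF genes in the 3 comparisons, 3 libraries per group, with filled points for genes called at an adjusted p under 0.05. The PDGF-BB changes from Control run from −1.10 for Fgf2 to −0.05 for Fgfrl1, and the PDGF-BB+PTUPB differences from PDGF-BB run from 0.07 for Fgfr2 to 0.69 for Fgf7.

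Of 18 other FGF family genes listed, 17 were in the table, 10 of them with 0 counts in all 9 libraries, among these the receptor gene Fgfr4. None of the 17 was expressed. Fgf13, an intracellular FGF homologous factor, was the only 1 kept by the count filter, at no more than 0.60 FPKM, and it was not called in any comparison (edgeR adjusted p = 0.373 to 0.925).

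Target and feedback genes of FGF and ERK signalling did not move in 1 direction. With PDGF-BB against Control, 3 of 15 were called lower and 1 higher, with a median of −0.08, where 14.9% of all genes were called lower and 16.9% higher. The 1 higher became 2 without PDGF-BB replicate 1 and without Control replicate 1 or 2, and ran from 1 to 3 over the 20 alternatives. The 3 lower ran from 2 to 4. Dusp6, an ERK phosphatase, averaged 13.4 ± 1.29 FPKM with PDGF-BB and 9.15 ± 0.535 FPKM in Control (SD, n = 3 each), a change of 0.49 ± 0.11 (edgeR adjusted p = 0.00766). The Sprouty genes Spry1 and Spry4, inhibitors of receptor tyrosine kinase signalling, changed the other way, by −1.24 ± 0.24 and −1.14 ± 0.24 (edgeR adjusted p = 0.00360 and 0.00480). Phlda1, an ERK-responsive gene, changed by −0.40 ± 0.13 (edgeR adjusted p = 0.0429), a call lost in 12 of the 20 alternatives, with adjusted p from 0.0148 to 0.188 over all 20. Without the libraries with a length trend, the changes were 0.46 ± 0.13 for Dusp6, −1.38 ± 0.20 for Spry1 and −1.26 ± 0.27 for Spry4, all called, and that of Phlda1 was not (edgeR adjusted p = 0.0656). In PDGF-BB+PTUPB against PDGF-BB, Dusp6 alone was called by edgeR, lower by −0.37 ± 0.11 (edgeR adjusted p = 0.0464), at 10.1 ± 1.30 FPKM with PDGF-BB+PTUPB. Of all genes 9.50% were called lower in that comparison and 7.50% higher. That Dusp6 call was lost in 9 of the 20 alternatives, 6 of which each left out 1 library, with adjusted p from 0.0309 to 0.164 over all 20, and 0.0691 without the libraries with a length trend. Of the 15 genes, 4 were higher there at an unadjusted p under 0.05. DESeq2 called Spry1 and Phlda1 higher (DESeq2 adjusted p = 0.0446 and 0.0454), limma called 0 higher, and in 7 of the 20 alternatives 1 or 2 were called higher. Without the libraries with a length trend Spry1 was called higher, by 0.64 ± 0.19 (edgeR adjusted p = 0.0334). Against Control, 0 of 15 genes were called with PDGF-BB+PTUPB (the median was 0.00), where 2.01% of all genes were called. The most abundant of the 15, Phlda1 and Spred1, gave edgeR adjusted p = 0.995 and 0.807. At an unadjusted p under 0.05, 2 of the 15 were higher and 0 lower there, and DESeq2 and limma called 0. Spry1 was called lower there without the libraries with a length trend (−0.74 ± 0.17, edgeR adjusted p = 0.0233). All these genes also answer to other receptor tyrosine kinases, the PDGF receptor among them.

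Of 22 tested genes for the proteins between the receptor and ERK, 3 were called higher and 2 lower with PDGF-BB against Control, 5 of 22 where 31.8% of all genes were called. The 2 lower became 1 in 12 of the 20 alternatives, among them the fits without PDGF-BB+PTUPB replicate 2 or 3, PDGF-BB replicate 1 or 3 or Control replicate 3. The small GTPase gene Hras changed by 0.44 ± 0.10, the adaptor gene Grb2 by 0.37 ± 0.10 and the kinase gene Map2k1 by 0.28 ± 0.08 (edgeR adjusted p = 0.00647, 0.0161 and 0.0189). Sos2, an exchange factor for Ras, changed by −0.47 ± 0.12 (edgeR adjusted p = 0.0119). The calls of Grb2 and Map2k1 were lost without Control replicate 3, with adjusted p of up to 0.0640 and 0.0662 over all 20 alternatives. When the libraries with a length trend were left out all 4 were called, at 0.37 ± 0.11 for Hras, 0.39 ± 0.11 for Grb2, 0.20 ± 0.06 for Map2k1 and −0.33 ± 0.10 for Sos2. Grb2 and Hras were called lower with PDGF-BB+PTUPB than with PDGF-BB, by −0.43 ± 0.10 and −0.42 ± 0.10 (edgeR adjusted p = 0.0145 and 0.0163), and by −0.44 ± 0.10 and −0.36 ± 0.10 without the libraries with a length trend. With edgeR and limma 0 were called higher and with DESeq2 1 was, Sos2 (0.37 ± 0.14, DESeq2 adjusted p = 0.0485), while at an unadjusted p under 0.05 1 was. Over all genes edgeR called 7.50% higher in that comparison and 9.50% lower. The Grb2 call was lost without any 1 of the PDGF-BB+PTUPB libraries and the Hras call without replicate 1 or 2 of that group, with adjusted p of up to 0.0567 and 0.0700 over all 20 alternatives. Against Control 0 were called with PDGF-BB+PTUPB, where 2.01% of all genes were called, with edgeR adjusted p = 0.929 for Shc1 and 0.699 for Mapk3, the most abundant of the list. At an unadjusted p under 0.05 there were also 0, and 0 by DESeq2 or limma.

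Among co-receptors, proteoglycans and FGF-binding proteins, 9 of 13 tested genes were called with PDGF-BB against Control, 4 higher and 5 lower, where 16.9% of all genes were called higher and 14.9% lower. The 4 became 2 without any 1 of PDGF-BB+PTUPB replicates 2 and 3, PDGF-BB replicate 1 and Control replicates 1 and 3. Over the 20 alternatives this count was lower in 13 and ran from 2 to 4. Sdc1, a heparan sulphate proteoglycan of the cell surface, averaged 85.1 ± 7.09 FPKM with PDGF-BB and 41.4 ± 1.20 FPKM in Control (SD, n = 3 each), a change of 0.98 ± 0.08 (edgeR adjusted p = 2.32e-05). Flrt2, of a family of membrane proteins that bind FGF receptors, averaged 27.5 ± 6.45 FPKM with PDGF-BB and 75.0 ± 3.30 FPKM in Control, a change of −1.51 ± 0.15 (edgeR adjusted p = 6.5e-05). Cdh2, the gene of N-cadherin, which binds Fgfr1, changed by −0.99 ± 0.10 and the proteoglycan gene Sdc4 by −0.46 ± 0.08 (edgeR adjusted p = 9.04e-05 and 0.00208). All 4 were also called without the libraries with a length trend, at 0.90 ± 0.06 for Sdc1, −1.37 ± 0.09 for Flrt2, −0.82 ± 0.07 for Cdh2 and −0.55 ± 0.07 for Sdc4. Flrt2 and Cdh2 were called higher with PDGF-BB+PTUPB than with PDGF-BB, by 0.92 ± 0.15 and 0.70 ± 0.10, and Sdc1 lower, by −0.77 ± 0.08 (edgeR adjusted p = 0.00317, 0.00236 and 5.61e-04). Ncam1, a cell adhesion protein that binds Fgfr1, was also called lower there, by −0.57 ± 0.17 (edgeR adjusted p = 0.0433), a call lost in 7 of the 20 alternatives, with adjusted p from 0.0120 to 0.147 over all 20. These differences without the libraries with a length trend were 0.74 ± 0.08 for Flrt2, 0.61 ± 0.06 for Cdh2, −0.69 ± 0.06 for Sdc1 and −0.68 ± 0.16 for Ncam1, all called. With all libraries, 7.50% of all genes were called higher in this comparison and 9.50% lower. Against Control 0 of the 13 were called with PDGF-BB+PTUPB, where 2.01% of all genes were called, with edgeR adjusted p = 0.780 for Sdc2 and 0.203 for Sdc4. At an unadjusted p under 0.05, 1 was higher and 4 lower there, DESeq2 called 1, lower, and limma called 0. Without the libraries with a length trend edgeR called 1 of the 13 higher and 2 lower, where 612 of the 12107 genes tested were called higher and 700 lower.

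The genes that build and edit heparan sulphate were mostly lower where they were called with PDGF-BB: of 21 tested, 9 were called lower and 1 higher than in Control, with a median of −0.10 beside −0.01 over all genes. Of all genes 14.9% were called lower and 16.9% higher. The count of 9 was lower in 17 of the 20 alternatives and higher in 0, with a range of 4 to 9. It fell to 5 without PDGF-BB replicate 1 and to 4 without Control replicate 3. Hs6st1, a 6-O-sulphotransferase, averaged 23.7 ± 2.29 FPKM with PDGF-BB and 66.3 ± 5.52 FPKM in Control (SD, n = 3 each), a change of −1.55 ± 0.13 (edgeR adjusted p = 2.75e-05). Hs6st2, which carries out the same reaction, changed the other way, at 16.4 ± 5.21 FPKM with PDGF-BB and 7.49 ± 0.452 FPKM in Control, by 1.06 ± 0.20 (edgeR adjusted p = 0.00278). Sulf1 and Sulf2, extracellular enzymes that remove 6-O-sulphates, changed by −1.24 ± 0.12 and −1.0 ± 0.09 (edgeR adjusted p = 6.14e-05 and 3.66e-05). All 4 kept their calls without the libraries with a length trend, at −1.58 ± 0.14 for Hs6st1, 1.23 ± 0.12 for Hs6st2, −1.18 ± 0.10 for Sulf1 and −0.98 ± 0.10 for Sulf2. Genes for adding this sulphate and for removing it were thus both among those that fell.

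Under PTUPB, in PDGF-BB+PTUPB against PDGF-BB, 3 of the 21 heparan sulphate genes tested were called higher and 0 lower with edgeR, DESeq2 and limma. With edgeR 7.50% of all genes were called higher and 9.50% lower. At an unadjusted p under 0.05, 0 of the 21 were lower. The 3 called higher were Hs6st1 (1.15 ± 0.13), Sulf2 (0.73 ± 0.09) and Sulf1 (0.76 ± 0.12), with edgeR adjusted p = 7.9e-04, 0.00104 and 0.00287. Without the libraries with a length trend they were called at 1.10 ± 0.13, 0.74 ± 0.09 and 0.65 ± 0.09, and Hs6st2 was called lower (−0.61 ± 0.10, edgeR adjusted p = 0.00221). Sulf1 averaged 199 ± 21.7 FPKM with PDGF-BB+PTUPB, 121 ± 16.6 FPKM with PDGF-BB and 272 ± 18.9 FPKM in Control (SD, n = 3 each). Its difference between PDGF-BB+PTUPB and Control was −0.48 ± 0.12 and was not called (edgeR adjusted p = 0.0833), and that of Sulf2 was −0.27 ± 0.09 (edgeR adjusted p = 0.208). None of the 21 was called in that comparison by edgeR or limma, where 1 was higher and 7 lower at an unadjusted p under 0.05 and DESeq2 called 1 higher and 1 lower. With all libraries edgeR called 2.01% of all genes there. Without the libraries with a length trend, edgeR called 5 of these 21 lower and 1 higher, where 700 of the 12107 genes tested were called lower and 612 higher.

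**Figure D5:**
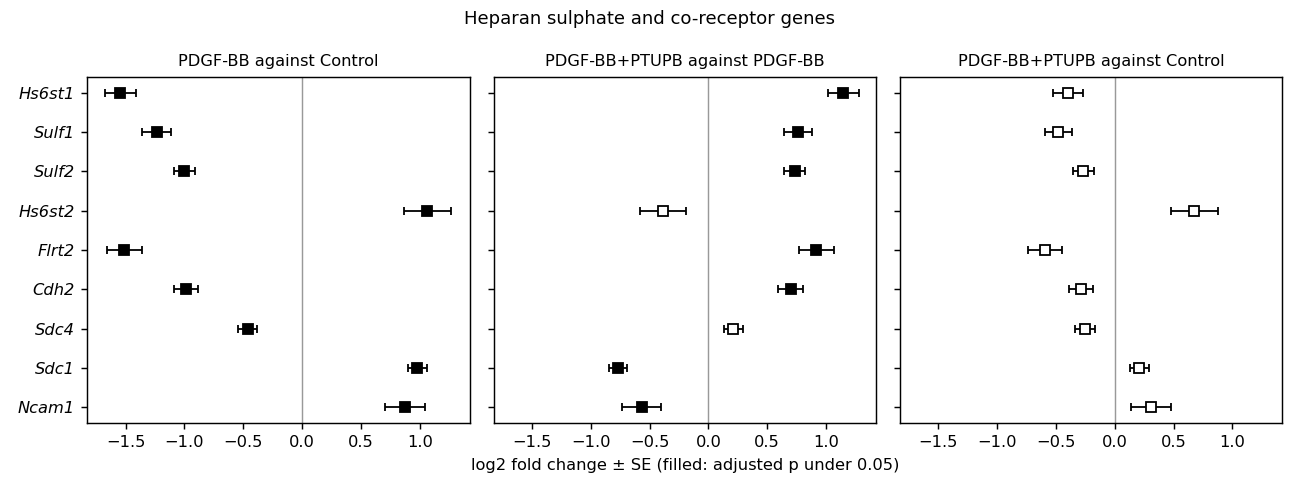
Log2 fold change with its standard error for 4 heparan sulphate genes and 5 co-receptor, proteoglycan or binding protein genes in the 3 comparisons, 3 libraries per group, with filled points for genes called at an adjusted p under 0.05. The 9 genes were picked from those called in these data, so their calls are no separate result. With PDGF-BB against Control all 9 genes are called by edgeR, from −1.55 for Hs6st1 to 1.06 for Hs6st2. With PDGF-BB+PTUPB against Control none of the 9 is called by edgeR, while DESeq2 called Flrt2, Sulf1 and Hs6st2 (adjusted p = 0.00803, 0.00996 and 0.0459). Without the libraries with a length trend, edgeR called Flrt2, Sulf1, Hs6st2, Hs6st1, Sdc1 and Sdc4 in that comparison.

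Genes whose log2 CPM followed that of Fgf7 and Fgfr1 most closely over the 9 libraries were sought among 8052 tested genes with a mean of at least 5 FPKM. For Fgf7 these were Adam9, Il13ra1 and LOC100909712, with Pearson correlations of 0.992, 0.988 and 0.987. For Fgfr1 they were Klhl42, Spen and Slc6a6, at 0.975, 0.975 and 0.974. These are descriptions over 9 libraries that share their groups and the length trend, with no test.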

How the data were processed

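Poly(A) RNA of 9 libraries was sequenced paired-end. The submitters' processing notes name cutadapt 1.9.1, HISAT2 2.0.1 and HTSeq 0.6.1. In the authors' deposited table each gene and library has an expected count, which was not whole for 978 of 32623 genes. How those values were made, and the strand used in counting, are not given in the sources used here. The authors also deposited FPKM, which recomputation from the deposited counts and exonic lengths matched to within 0.005. The notes name mm10, a mouse build, while all 32623 identifiers are rat Ensembl identifiers, so no coordinates are given from the file. Its coordinates were used only to see which genes overlap.

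Groups came from the sample labels. After rounding to whole counts, 1 edgeR 4.0.16 model in R 4.3.3 was fitted to all 9 libraries, with group as its single term, TMM scaling and the edgeR count filter at a minimum of 10, which left 6 residual degrees of freedom. Calls are two-sided at a Benjamini-Hochberg adjusted p under 0.05. Alternatives used limma 3.58.1, DESeq2 1.42.0, other scalings and filters, the replicate number as a block, and fits without single libraries. The main model did not pair libraries by replicate number. Correlations of deviations between same-numbered libraries ran from −0.29 to 0.19. These values include the libraries with a length trend and do not settle whether the libraries were paired. No libraries were identical. Floors are 3 counts.

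The FGF genes and the gene lists were chosen with earlier results of these data known. Genes named were all 10 FGF genes, up to 4 called genes of each list and comparison by smallest p or else the 2 most abundant, and the 3 genes that correlated best with Fgf7 and with Fgfr1. Promoter windows are from RefSeq (GRCr8), which gave 9 of the 10. Fgfr1 had no window there.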

Additional observations from a re-analysis of the deposited data

How the results depend on the processing

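Over 20 alternative settings, 450 of 477 values of single FGF genes stayed on the same side of the threshold, 20 were no longer called and 7 became called. Most of these values belonged to changes not called in the main fit, which had no call to lose. The losses were 4 for Fgf2 and 1 for Fgf7 with PDGF-BB against Control. They were 4 for Fgf7 with PDGF-BB+PTUPB against PDGF-BB and 11 for Fgfr2 with PDGF-BB+PTUPB against Control. No change that was called in either fit reversed its direction. Some changes that were not called did switch sign. Over the alternatives Fgfrl1 ran from −0.14 to 0.04 with PDGF-BB against Control. Fgfr2 ran from −0.03 to 0.16 with PDGF-BB+PTUPB against PDGF-BB, and Fgf7 from −0.07 to 0.04 with PDGF-BB+PTUPB against Control. With PDGF-BB against Control, 4 to 6 FGF genes were called in every setting, and the calls of Fgfr1, Fgfr2 and Fgf10 held in all 20. Fgf2 also lost its call when only those groups were fitted (edgeR adjusted p = 0.0514), and Fgf1 was called with DESeq2 (adjusted p = 0.0173). With PDGF-BB+PTUPB against PDGF-BB, where 1 FGF gene was called, 2 were called with DESeq2, 0 with those groups alone, 2 without both libraries with a length trend and 0 to 2 without single libraries. With PDGF-BB+PTUPB against Control, also 1 call, 0 were made with limma at either pseudocount (1 or 0.1), 0 with those groups alone, 0 with the replicate block and 0 to 1 without single libraries. All genes called in that comparison numbered 243, against 438 with DESeq2, 1312 without both libraries with a length trend and 92 to 337 without single libraries. With PDGF-BB+PTUPB against PDGF-BB they numbered 2058, against 2284 with DESeq2 and 2318 with those groups alone. They numbered 2848 without both libraries with a length trend and 987 to 2642 without single libraries. The replicate block gave 5 FGF genes and 3425 genes in all for PDGF-BB against Control, 1 and 1610 for the inhibitor group against PDGF-BB, and 0 and 167 for the inhibitor group against Control. Scaling by library totals alone gave 2486 genes higher and 1431 lower with PDGF-BB against Control, where TMM scaling gave 2044 and 1803. Limma at a pseudocount of 1, which was run on FPKM without TMM scaling, gave 2525 and 1355. The cause of these differences was not tested. Between 5 and 8 FGF genes were expressed across the cutoffs tried. Depth limits Fgf9, Fgf18, Fgfr3 and Fgf2, whose counts were low.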
